A study of Homo sapiens with 8 samples.

Results

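The genes described here are those that encode the proteins of the cytoplasmic ribosome. They were chosen by symbol from the GENCODE annotation of hg19: protein-coding genes whose symbol starts with RPL or RPS followed by a digit, together with RPLP0, RPLP1, RPLP2, RPSA and FAU, without the RPS6K kinases and without pseudogenes. The rule found 92 genes. Of these, 3 are read-through loci that share their exons with RPS10, RPL17 and RPL36A, so their reads were given to the parent gene and 89 genes were counted, of 19516 nuclear protein-coding genes in all. By symbol, 49 members belong to the large subunit, 35 to the small subunit and 3 to the acidic stalk of the large subunit. The remaining 2 members, RPL7L1 and RPS19BP1, carry such symbols but encode a ribosome biogenesis factor and a binding partner of RPS19, and they were kept because the rule takes them.

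Ribosomal protein mRNAs are among the most abundant mRNAs of a growing cell. Most begin with a cytosine followed by a run of pyrimidines, the 5′ terminal oligopyrimidine (TOP) tract, through which growth signals set how strongly they are translated. The genes have left many processed pseudogenes across the genome, so that short reads from their exons often match more than 1 place. NSun6 is a cytosine-5 RNA methyltransferase with tRNA and mRNA substrates, for which the sequence CTCCA with the methylated base at its start is a known target context, and NSun3 is a mitochondrial enzyme that modifies the mitochondrial methionine tRNA.

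The study mapped cytosine-5 methylation in HEK293, a human embryonic kidney cell line, in 8 samples. In 6 of them a myc-tagged enzyme was expressed by transfection, NSun3 in 3 and NSun6 in 3, the cells were harvested after 24 hours, and RNA held by the enzyme was recovered with an antibody against c-myc (miCLIP). In the study's account, the NSun3 construct was a catalytic mutant in which the cysteine that frees the RNA after methylation was replaced by alanine, so that the enzyme stays bound at its target cytosine, while which form of NSun6 was expressed is not given in the sources used here. The enzymes were overexpressed, and no sample with an unrelated tagged protein or an untransfected pull-down was analysed here, so each enzyme served only as the comparison for the other. The other 2 samples were poly(A) RNA treated with bisulfite, which turns unmethylated but not methylated cytosines into uracil (BS RNA-Seq). The bisulfite reads stand in 1 table without separate columns or sample names, which was taken as the pool of both because no other sample here was treated with bisulfite, so a bisulfite level has no replicate error here, and the intervals given cover counting error only.

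The NSun6 libraries held 305392 to 467586 reads and the NSun3 libraries 47352 to 138921. Nuclear protein-coding exons took 47.8 to 49.4% of the NSun6 reads and 1.22 to 2.08% of the NSun3 reads. NSUN6 itself had 323, 428 and 323 exon reads in the NSun6 libraries and 0 in the NSun3 libraries. NSUN3 had 32, 19 and 0 reads in NSun3 replicates 1 to 3 and 0, 0 and 7 in the NSun6 libraries, so that the library labelled NSun3 replicate 3 held none, and results that rest on it are also given without it.

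The windows below carry the results that follow. Each has 25 bases of hg19 read 5′ to 3′ on the strand of the gene, in lower case except for 5 bases in capitals, which begin with the cytosine that took the miCLIP reads or the bisulfite signal. RPL17, RPS27, RPL9 and RPS15 held the cytosines with the most NSun6 reads, RPL32 and RPS6 the next CTCCA cytosines in that order, and RPSA, RPS19 and RPL22 held the bisulfite signals discussed last.
RPL17 (chr18:47018738-47018762, minus strand): gggggcgccggcCTCCAggcccccg
RPS27 (chr1:153963226-153963250, plus strand): tccgctttcgctCCTTTccggcggt
RPL9 (chr4:39460134-39460158, minus strand): ccgcctggcagtCTCCAgtaggagt
RPS15 (chr19:1440368-1440392, plus strand): cctgggcgagttCTCCAtcacctac
RPL32 (chr3:12877354-12877378, minus strand): agccttagtcatCTCCAgttgaggc
RPS6 (chr9:19376592-19376616, minus strand): agcgtcttgttaCTCCAcgtgtcct
RPSA (chr3:39450185-39450209, plus strand): cagtgttatatcCTCCAggaatact
RPS19 (chr19:42373196-42373220, plus strand): agccacttcagcCGAGGctccaaga
RPL22 (chr1:6245980-6246004, minus strand): tcccgtgtggggCCCAGcaatgggg

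NSun6 reads in ribosomal protein mRNAs were few and lay in a small number of genes. The member exons held 513, 730 and 487 reads in NSun6 replicates 1 to 3. Of the 89 genes, 60 had at least 1 NSun6 read, 23 had a read in all 3 libraries, 14 in 2, 23 in 1 library alone, and 29 had none. The 4 genes with the most reads, RPL17, RPS27, RPL9 and RPS15, held 897 of the 1730 reads, which is 51.8%.

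RPL17, a protein of the large subunit near the exit of the peptide tunnel, led with 121, 142 and 72 reads, or 374, 304 and 236 RPM (reads scaled to a library of 1000000 reads), a mean of 304 ± 68.9 RPM (SD, n = 3). RPS27, a zinc-finger protein of the small subunit, had 42, 98 and 94 reads, a mean of 216 ± 89.2 RPM (SD, n = 3), with replicate 1 well under the other two. RPL9, a large subunit protein, had 71, 72 and 38 reads and a mean of 166 ± 48.5 RPM (SD, n = 3). These 3 genes did not keep their order in every library, since RPS27 stood above RPL17 in replicate 3 and under RPL9 in replicate 1.

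RPS15, a protein of the head of the small subunit, had 55, 41 and 51 reads, a mean of 141 ± 46.6 RPM (SD, n = 3). RPL32 had 18, 34 and 19 reads (63.5 ± 8.65 RPM, SD, n = 3). RPS6, the small subunit protein that is phosphorylated by the S6 kinases, had 18, 26 and 16 reads (54.5 ± 1.84 RPM, SD, n = 3). RPS6 was thus the most even of the 6 across libraries, and it did not overlap with RPS15 in any of them. The next 4 genes, RPSA, RPL14, RPL30 and RPL13, had means from 44.3 down to 31.3 RPM, and their values in single libraries overlapped.

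**Figure D1:**
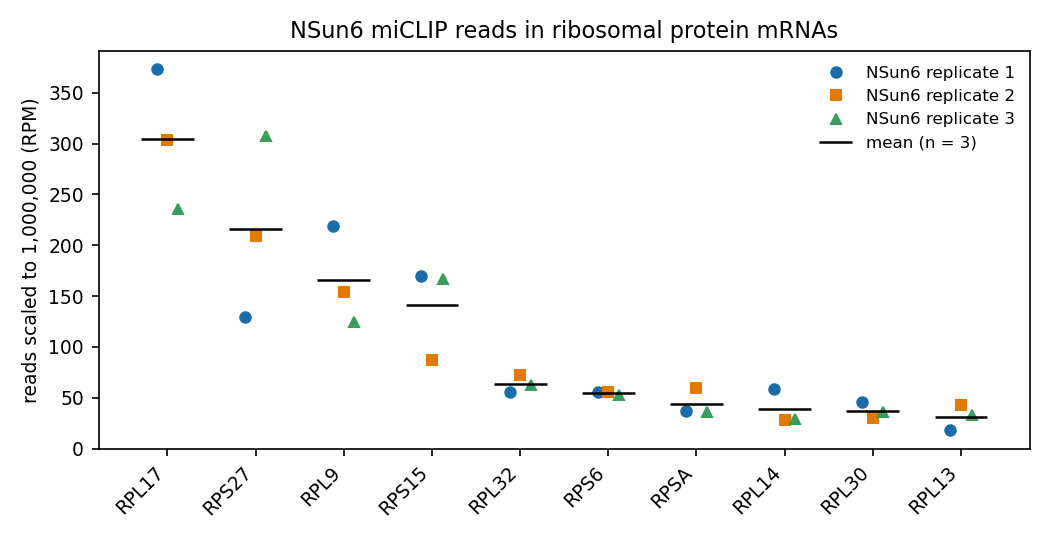
NSun6 miCLIP reads in RPM (vertical axis) in the 10 ribosomal protein genes with the highest mean, in each of the 3 NSun6 libraries (symbols), with the mean as a line. RPL17, RPS27, RPL9 and RPS15 stand above 80 RPM in all 3 libraries, and RPL32 and the genes to its right stay under 80 RPM.

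In the NSun3 libraries the member exons held 11, 2 and 0 reads. The 13 reads lay in 7 genes, none of which had a read in more than 1 NSun3 library, and 6 of the 13 were in RPS2 in replicate 1. RPL17, RPS27, RPL9, RPS15, RPL32 and RPS6 had no read in any NSun3 library. A count of 0 allows up to 3 reads over the NSun3 group, or 12.5 RPM, against which RPL17 was at least 24.3-fold lower in NSun3 than in NSun6, RPS27 at least 17.2-fold, RPL9 at least 13.2-fold, RPS15 at least 11.3-fold, RPL32 at least 5.07-fold and RPS6 at least 4.35-fold lower. Without NSun3 replicate 3 the limit was 15.6 RPM and these bounds ran from 19.5-fold for RPL17 to 3.49-fold for RPS6. They are on the scale of whole libraries, in which protein-coding exons as a whole took far fewer of the NSun3 reads. At the share of exon reads that RPL17 had in NSun6, the 4121 NSun3 exon reads would hold 2.60 reads of RPL17, and 0.466 of RPS6, so that a count of 0 shows no difference of these genes from other mRNAs.

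Only these 6 members had enough reads to enter the gene test of NSun3 against NSun6 (edgeR quasi-likelihood, Benjamini-Hochberg adjusted over all 1424 genes tested). They entered it through their NSun6 reads alone, since they had 0 reads in every NSun3 library. That all 6 were called lower in NSun3, beside 91.9% of all genes tested, was thus fixed by the filter on low counts, and nothing is read from it. Without that filter, 21 of 61 members with a read were lower and 0 higher, beside 30.7% of all genes lower. Without NSun3 replicate 3 as well, these were 13 of 61 members and 23.9% of all genes.

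The share of the nuclear protein-coding exon reads that fell in ribosomal protein genes did not separate the enzymes. It was 0.331, 0.324 and 0.323% in the NSun6 libraries (mean 0.326 ± 0.00449, SD, n = 3) and 0.382, 0.310 and 0% in the NSun3 libraries (mean 0.230 ± 0.203, SD, n = 3). The exact two-sided permutation test gave p = 0.7, where the smallest p that 3 against 3 allows is 0.1. The exact 95% binomial intervals of the NSun3 libraries were wide, 0.191 to 0.682% in replicate 1, 0.0375 to 1.11% in replicate 2 and 0 to 0.621% in replicate 3. Without replicate 3 the difference NSun3 minus NSun6 was 0.020 percentage points in place of -0.096. The NSun6 mean lay within the interval of each NSun3 library.

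Truncations were then assigned to cytosines, taking the closest one on the strand at a distance of 2 nucleotides or less. By this, 207 member cytosines had an NSun6 read, 167 of them in 1 library only and 21 in all 3. The threshold of the study for a high-confidence site, over 50 RPM in at least 2 of 3 replicates, was passed by 4 of the 207 member cytosines (1.93%), beside 2.19% of all protein-coding exonic cytosines with an NSun6 read. No member cytosine passed it in NSun3. All 4 sites were over 50 RPM in all 3 NSun6 libraries and had 0 reads in every NSun3 library. They entered the cytosine test through their NSun6 reads alone, so that its calls of all 4 as lower in NSun3, beside 72.3% of the 1775 cytosines tested, say nothing more. Without the filter on low counts, 8 of 211 member cytosines were lower and 0 higher, beside 3.7% of all cytosines lower. Without NSun3 replicate 3 as well, these were 6 of 211 and 2.4%.

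The site in RPL17 (chr18:47018750) had 77, 87 and 33 reads, a mean of 177 ± 65.3 RPM (SD, n = 3). It is the start of a CTCCA in a 5′ untranslated exon of a transcript other than the canonical one, as the first window shows, with no bisulfite coverage above the deposited minimum. The site in RPL9 (chr4:39460146) had 57, 49 and 34 reads, a mean of 131 ± 39.3 RPM (SD, n = 3). It too is the start of a CTCCA in a 5′ untranslated exon of a non-canonical transcript, and 0 of 168 bisulfite reads there were methylated, which allows a level of up to 2.17% (upper bound of the exact 95% interval). All 3 NSun6 libraries thus had reads at a cytosine with no methylated read in the bisulfite table.

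RPS15 had its site in the coding sequence (chr19:1440380), with 47, 35 and 48 reads and a mean of 126 ± 44.5 RPM (SD, n = 3). The window shows it as the start of a CTCCA, and its bisulfite coverage of 11 reads, none methylated, was under the minimum of 20 used here. The site in RPS27 (chr1:153963238) differed from the other 3 in its letters, since its capitals read CCTTT. It had 26, 78 and 55 reads, a mean of 142 ± 54.2 RPM (SD, n = 3). This cytosine is base 1 of the annotated RPS27 transcript, so the 12 bases before it in the window lie upstream of the gene.

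All 234 NSun6 reads in RPS27 truncated within the first 8 bases of the transcript. Base 1 took 26, 78 and 55 reads, base 2 took 0, 14 and 32, and each of the other 6 bases took 9 or fewer in any library. RPS27 accounted for 234 of the 298 member reads that truncated between 4 nucleotides before and 20 nucleotides after an annotated transcript start, and the other 64 were spread over 9 genes. At the very 5′ end, a cDNA that ran to the end of the RNA and one that stopped at a cytosine cannot be told apart from truncation counts.

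The annotated starts of these genes carried the TOP sequence far more often than those of other genes. The canonical transcript began with C in 66 of 89 members (74.2%) and in 10.6% of all 19468 nuclear protein-coding genes with a canonical transcript. A C followed by 4 pyrimidines at the start was found in 61 of 89 members (68.5%) and in 4.62% of all genes. Bisulfite reads rarely reached this end: 23 cytosines in the first 20 nucleotides of 7 members were covered by at least 20 reads, with 2 methylated reads of 1472 (0.136%).

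By region, 52.8 ± 4.76% of the NSun6 reads at member cytosines lay in 5′ untranslated regions (SD, n = 3), against 6.62 ± 0.175% over all nuclear protein-coding genes. The coding sequence took 31.5 ± 3.49% in members and 47.3 ± 0.0698% over all genes, and the 3′ untranslated region 15.7 ± 1.34% in members and 46.0 ± 0.180% over all genes. The 5′ share was higher in members in 3 of 3 libraries, by 46.2 ± 4.92 percentage points (exact paired permutation test, p = 0.25, the smallest that 3 pairs allow). RPL17, RPS27 and RPL9 carried most of it. Without these 3 genes the 5′ share was 11.8 ± 6.98% (SD, n = 3), from 3.78 to 16.4% in single libraries.

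CTCCA marked fewer of the NSun6 reads in these genes than elsewhere. The start of a CTCCA took 55.2, 42.6 and 40.3% of the reads at member cytosines in replicates 1 to 3, and 71.8, 64.5 and 71.1% over all nuclear protein-coding genes. The share was lower in members in 3 of 3 libraries, by 23.1 ± 7.18 percentage points (SD, n = 3; exact paired permutation test, p = 0.25, the smallest that 3 pairs allow). Part of this gap came from RPS27, whose 42, 98 and 94 reads all lay at its transcript start, outside any CTCCA. The shares without RPS27 were not computed. The related CTCTA took 7.30 ± 3.66% in members and 6.32 ± 0.468% over all genes, a difference within the spread between libraries. After the 4 sites above, RPL32 had 18, 23 and 11 reads at a CTCCA in its 3′ untranslated region (chr3:12877366), and RPS6 had 10, 11 and 7 at a CTCCA in its coding sequence (chr9:19376604).

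Set against the poly(A) RNA, ribosomal protein mRNAs had far fewer NSun6 reads than their share of the exonic bisulfite coverage. They held 5.01% of the coverage over nuclear protein-coding exons at cytosines with at least 20 reads, and 0.326% of the NSun6 exon reads, a ratio of 0.065. The miCLIP reads were kept only where they mapped to 1 place, and the mappability of these genes is low. In the canonical transcripts, 51.8% of member cytosines had 30-base sequences found once in the genome, and among cytosines covered by bisulfite reads this was 46.3% in members and 93.0% in all nuclear protein-coding genes. When the NSun6 reads were limited to cytosines that bisulfite reads covered, members held 715 reads, 0.225 ± 0.00568% (SD, n = 3), a ratio of 0.045 on the same cytosines. At canonical cytosines with unique 30-base sequences, members held 1.87% of the coverage and 0.0849 ± 0.0161% of the NSun6 reads (SD, n = 3), and the ratio was again 0.045. At canonical cytosines whose sequences stay unique after every C is read as T, which is what a converted bisulfite read shows, they held 0.892% and 0.0563 ± 0.0143% (SD, n = 3), a ratio of 0.063. The bisulfite table has no replicate columns, so this difference was not tested, and the coverage came from other samples and another RNA fraction than miCLIP.

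Other genes tied to the ribosome stood elsewhere on this scale. The 22 other TOP mRNAs, which encode translation factors and related proteins, held 2.24% of the coverage and 0.450 ± 0.0382% of the NSun6 reads (SD, n = 3), a ratio of 0.20. The 78 genes of the mitochondrial ribosome held 0.815% and 0.377 ± 0.0387%, a ratio of 0.46. The 40 ribosome assembly factors held 0.580% and 0.606 ± 0.0351%, a ratio of 1.05. The 13 regulators of TOP mRNAs, such as LARP1 and the EIF4E-binding proteins, held 0.239% and 0.0554 ± 0.0112%, a ratio of 0.23. The levels of the assembly factors and of the other TOP mRNAs rested on few genes. NVL, an ATPase of large subunit assembly, had 435, 736 and 488 NSun6 reads and EFL1, a GTPase of the same pathway, 231, 323 and 220, together 2433 of the 3232 reads of the assembly factors. Without NVL the list had 1573 reads, under the 1730 of the ribosomal protein genes, and without both it had 799 and a ratio of 0.27. PABPC1, the cytoplasmic poly(A)-binding protein, had 354, 633 and 288 and EEF2, the elongation factor of translocation, 161, 274 and 195, together 1905 of the 2423 reads of the other TOP mRNAs, and without both the ratio was 0.14. Leaving out the top 2 genes of the ribosomal protein list in the same way, RPL17 and RPS27, gave 1161 reads and a ratio of 0.044. The top 2 genes of the other lists weighed less, MRPS7 and MRPL10 with 637 of 2005 reads of the mitochondrial list (a ratio of 0.34 without them) and TSC2 and LARP1 with 108 of 287 reads of the regulators (0.18). These counts without the top genes were chosen after seeing the data.

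The tested genes of these lists also entered the gene test through their NSun6 reads, so no counts of calls are given for the lists. EIF3L, a subunit of initiation factor 3 and a TOP mRNA, had 37, 39 and 34 NSun6 reads and 17, 0 and 0 NSun3 reads (edgeR adjusted p = 0.87). Its NSun3 reads all came from replicate 1, so this p-value shows neither a difference between the enzymes nor its absence.

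**Figure D2:**
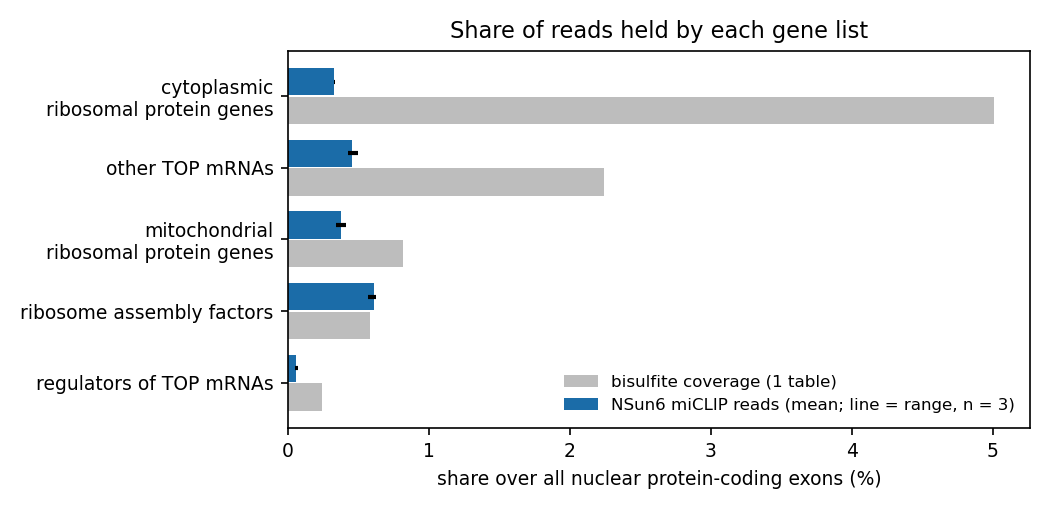
Share of bisulfite coverage (grey bars, 1 table without replicates) and of NSun6 miCLIP reads (blue bars, mean of 3 libraries, with a line for their range) held by each gene list, in percent of all nuclear protein-coding exons. The ribosomal protein genes have 5.01% of the coverage and 0.326% of the NSun6 reads, while the assembly factors have 0.580 and 0.606%, with 2433 of their 3232 NSun6 reads in NVL and EFL1.

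Cytosines of ribosomal protein mRNAs were almost fully converted by bisulfite. At a coverage of at least 20, 20101 cytosines in 85 members were covered by 50244566 reads in sum, with a median of 110 reads, against 69 over all 4848630 nuclear protein-coding cytosines. In this and every other sum of bisulfite reads over cytosines, a read is counted once at each cytosine it covers. Such sums are therefore not numbers of separate reads. Of the sum here, 56893 were methylated, a pooled level of 0.113% beside 0.128% over all genes. The level includes cytosines that bisulfite failed to convert, which the data do not separate from methylation. By region it was 0.0832% in the 5′ untranslated regions, 0.0926% in the coding sequences and 0.314% in the 3′ untranslated regions of members, and 0.284, 0.0920 and 0.189% over all genes. The 3′ level of members came from 14753 methylated reads and leaned on few genes. RPL7L1, which is not a ribosomal protein, had 5224 methylated reads over all its exons, and RPL22 had 2932. The coding level of members was thus close to that of other genes, at a median depth of 440 reads against 77. It too leaned on few positions. Of its 41758 methylated reads, single cytosines of RPSA, RPS19 and RPS6, described below, held 6436, 3048 and 2988. The coding level without them was not computed.

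Among the 79 members with at least 50 covered cytosines, the pooled level had a median of 0.0621% and ran from 0 to 2.09%, and 11 genes were above 0.2%. RPL22, a large subunit protein also known for binding a viral RNA, had the highest level (2.09%), followed by RPL7L1 (1.44%), RPS15A (1.09%), RPSA (0.639%), RPL37A (0.433%), RPL24 (0.388%), RPS19 (0.373%), RPS10 (0.247%), RPL37 (0.241%) and RPL23 (0.241%). The lowest were RPL3L, the muscle form of RPL3, with 0 methylated of 3193 reads, then RPL34 (0.0327%), RPL30 (0.0374%), RPS21 (0.0375%) and RPL38 (0.0376%). Methylated reads were 3 of 7971 in RPL38, 11 of 29372 in RPS21, 12 of 36644 in RPL34 and 33 of 88146 in RPL30. These counts, and that of RPL3L, are too small to fix the order of the lowest genes. Large subunit genes as a group had 0.0843% and small subunit genes 0.139%, and the latter holds the single RPSA cytosine described next.

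**Figure D3:**
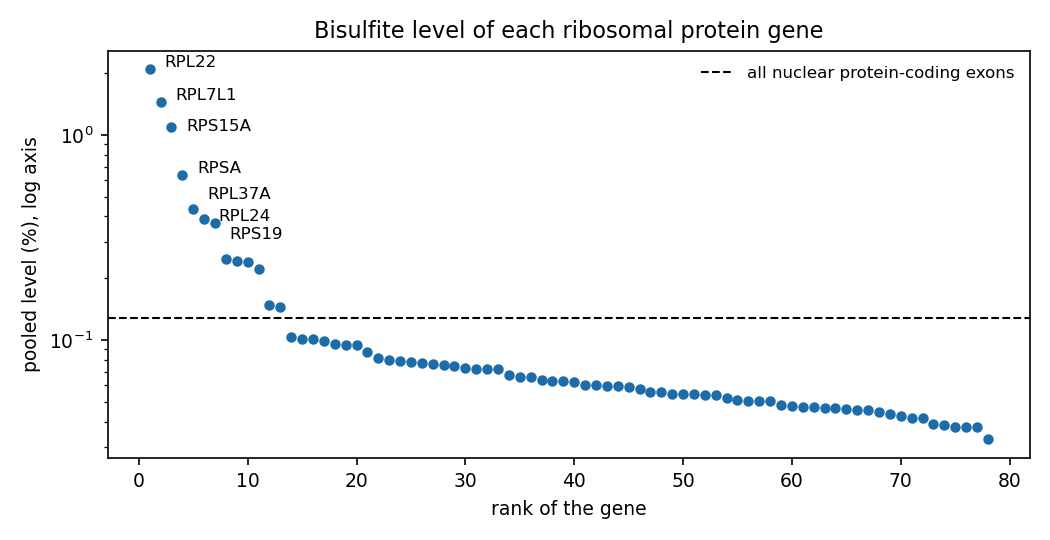
Pooled bisulfite level (vertical axis, percent, log scale) of the ribosomal protein genes with at least 50 covered cytosines, ranked from highest to lowest, with the level over all nuclear protein-coding exons as a dashed line. RPL3L, at 0, cannot be drawn on this axis, and the 7 named genes run from RPL22 at 2.09% to RPS19 at 0.373%.

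A single cytosine made up most of the signal of RPSA, the laminin receptor gene that encodes a protein of the small subunit. At chr3:39450197, base 312 of the canonical transcript and within its coding sequence, 6436 of 11051 reads were methylated, a level of 58.2% (exact 95% interval 57.3 to 59.2%). It held 83.1% of the methylated reads of the gene, and without it the level of RPSA was 0.109%. The 8 other covered cytosines within 20 nucleotides had levels of 0.0482% or less at 12443 to 14892 reads. The window shows the cytosine as the start of a CTCCA, and NSun6 had 0, 3 and 0 reads there and NSun3 none.

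The coverage at this cytosine was lower than beside it. It had 11051 reads, while the cytosine 1 base before had 14864 and the one 2 bases after 14842, and reads with a base other than C or T are not counted in the table. The 30-base sequences around it occur up to 14 times in the genome, or 27 times after conversion, and miCLIP reads that match several places were not kept. The part of these copies in the level, the coverage or the miCLIP count was not tested. Most NSun6 reads of RPSA truncated elsewhere: the cytosine at chr3:39450154, 43 bases upstream and followed by AATT, took 4, 15 and 6 reads, and 5 of its 14890 bisulfite reads were methylated (0.0336%).

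**Figure D4:**
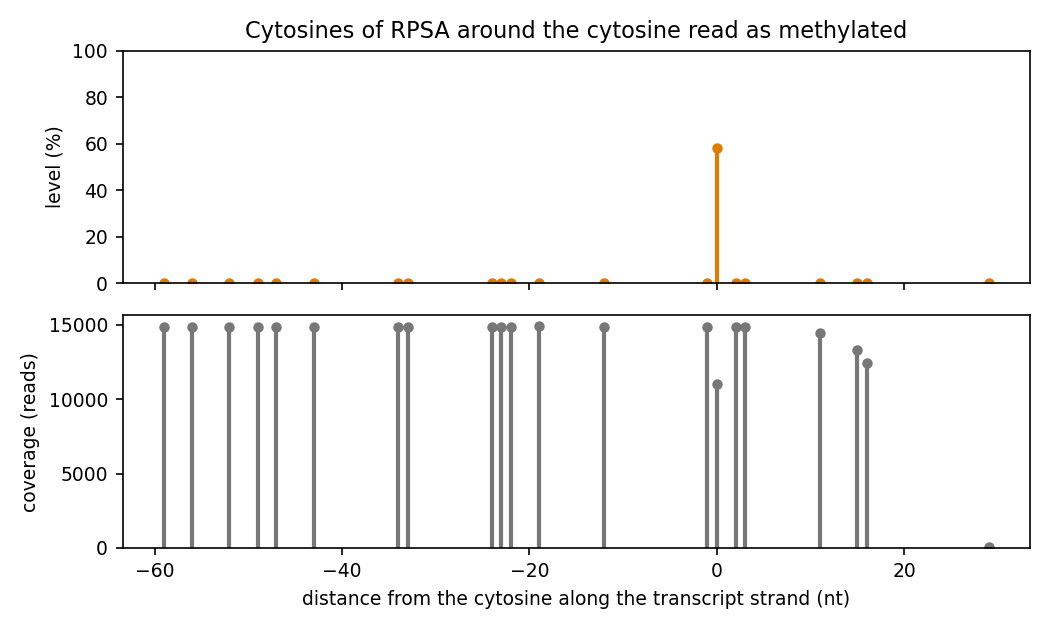
Bisulfite level in percent (upper plot) and coverage in reads (lower plot) of the covered RPSA cytosines within 60 nucleotides of the cytosine at 58.2%, by distance along the transcript strand. The other cytosines lie at 0.0672% or less, and the coverage dips from 14864 reads at distance -1 to 11051 at distance 0.

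Other single cytosines carried most of the level of RPS19, RPS6 and RPS10, all in coding sequence and at lower levels. In RPS19, the small subunit gene mutated most often in Diamond-Blackfan anaemia, 3048 of 30078 reads were methylated at chr19:42373208 (10.1%, exact 95% interval 9.79 to 10.5%), in a window with unique 30-base sequences. This was 79.4% of the methylated reads of the gene, and the 14 covered cytosines within 20 nucleotides had 0.195% or less. NSun6 had 0, 2 and 0 reads at this cytosine. At the start of the CTCCA that follows it in the window (chr19:42373213), NSun6 had 0, 4 and 8 reads. There 33 of 20461 bisulfite reads were methylated (0.161%). In RPS6, 2988 of 79813 reads were methylated at chr9:19378862 (3.74%, 3.61 to 3.88%), which is 63.4% of the methylated reads of the gene, with 0.0677% or less at its 10 neighbours and no NSun6 read.

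In RPS10, 233 of 4224 reads were methylated at chr6:34392530 (5.52%, 4.85 to 6.25%), in a sequence found up to 6 times in the genome, or 14 times after conversion. RPS9, named here after its values were seen, had 388 of 3753 (10.3%, 9.38 to 11.4%) at chr19:54711428, with no more than 0.306% at its 5 neighbours. None of these 4 cytosines is the start of a CTCCA. The CTCCA of RPS6 that drew NSun6 reads, at chr9:19376604, had 69 of 7568 methylated reads (0.912%, 0.710 to 1.15%), with 0.0815% or less at its 12 neighbours. The CTCCA of RPL32 that drew NSun6 reads had 2 of 38 (5.26%, 0.644 to 17.7%), which depth leaves undecided.

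Cytosines at a level of at least 20% numbered 68 of 20101 in members (0.338%, exact 95% interval 0.263 to 0.429%), beside 0.149% of all nuclear protein-coding cytosines. The interval counts cytosines as independent, which those of 1 stretch are not. Without RPL7L1 and RPS19BP1, which are not ribosomal proteins, 47 were left, an alternative chosen after seeing the data. The share was 0.253% in large subunit genes, 0.186% in small subunit genes and 0.765% in stalk genes. In stalk genes this was 4 of 523 cytosines (exact 95% interval 0.209 to 1.95%). All 4 lay within 5 nucleotides of a non-canonical exon of RPLP2, so the value is not one of the stalk genes as a group. In RPL7L1 and RPS19BP1 together the share was 2.49%. Of the 68, 64 had another such cytosine within 10 nucleotides, and 62 lay in 3′ untranslated regions, 4 in 5′ untranslated regions and 2 in coding sequence. Over all genes, 6580 of the 7233 cytosines at 20% or more had another within 10 nucleotides, a share near that of members, and 4630 lay in 3′ untranslated regions, 896 in 5′ untranslated regions and 1707 in coding sequence. They fell in 11 genes, with 21 in RPL7L1, 14 in RPL37, 10 in RPS15A and 7 in RPL22. The genes with the most cytosines were therefore not those with the most NSun6 reads, and the 68 cytosines together held 3 NSun6 reads, all in RPSA. Only 12 of the 68 had 30-base sequences known to occur once in the genome, and miCLIP reads were kept only where they mapped to 1 place. NSun6 reads at the others could thus be missed, so nothing is read from this comparison.

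Most of the stretches in canonical transcripts were repeated in the genome. The 14 cytosines of RPL37 had 30-base sequences that occur at least 116 times and the 21 of RPL7L1 at least 2 times, with the count stopped at 250 in both genes. The 10 of RPS15A reached 82.7% at a coverage of 24 to 77 and lay in a 3′ untranslated exon of a non-canonical transcript. Occurrences in the genome were counted for canonical transcripts only, so not for these 10 or for the 4 of RPLP2. The 7 of RPL22 were the main exception: they lay within 18 nucleotides of its 3′ untranslated region (chr1:6245975-6245992), in sequence found once in the genome, with levels of 35.1 to 43.9% at 927 to 1183 reads. After conversion the sequences of 4 of the 7 were still unique, and those of the other 3 (chr1:6245990-6245992) were found 3 times. The window of RPL22 shows the guanine-rich sequence around the cytosine with the most methylated reads, which is 1 of these 3, and no NSun6 read fell on any of the 7.

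RPL13 also had 4 such cytosines in unique sequence, at 20 to 23.2% and 90 to 96 reads within 16 nucleotides of its 3′ untranslated region. When only canonical cytosines with unique 30-base sequences were kept, 12 of 7262 member cytosines (0.165%, 0.0854 to 0.288%) and 0.0711% of all reached 20%. Isolated cytosines at 20% or more were 4 in members, in RPSA, RPL8, RPS29 and RPL14, or 0.0199% of the covered cytosines, and 0.0135% over all genes. RPS29 and RPL14 stood exactly at 20%, of 50 and 20 reads, and RPL8 at 27.6% of 221 reads. The RPL8 cytosine is base 1045 of a transcript of 1070 bases, and its covered neighbours within 20 nucleotides had 47 to 51749 reads. The RPL14 cytosine lay in sequence found at least 250 times, with up to 14.3% at its neighbours.

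**Figure D5:**
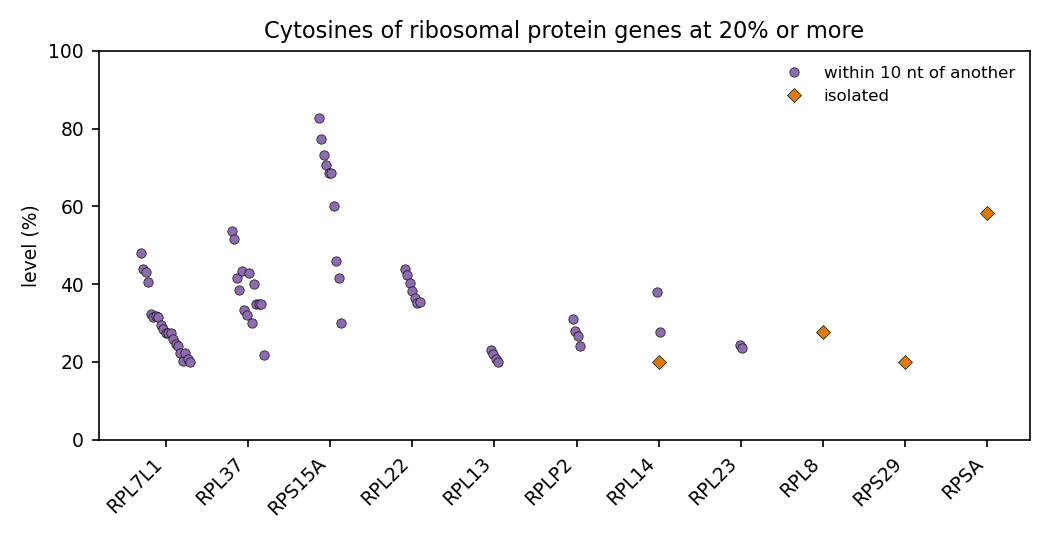
Bisulfite level (vertical axis, percent) of the 68 member cytosines at 20% or more with a coverage of at least 20, by gene. Of these, 21 lie in RPL7L1, which is not a ribosomal protein. Circles have another such cytosine within 10 nucleotides and diamonds do not; the RPSA cytosine at 58.2% is the highest of the 4 isolated ones, and RPS15A reaches 82.7%.

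The context of NSun6 gave little bisulfite signal in these mRNAs apart from RPSA. CTCCA was the context of 134 covered member cytosines in 54 genes (0.667% of member cytosines, as against 0.676% over all genes). Of these, 89 had no methylated read, 124 were under 1%, and 1, in RPSA, reached 20% (0.746%, exact 95% interval 0.0189 to 4.09%), beside 78 of 32771 over all genes (0.238%). Cytosines with no methylated read were 66.4% of those in members, at a median of 96 reads, and 88.3% over all genes, at a median of 70 reads. Coverage summed to 309885 reads over the 134 and to 6546353 over the 32771. Depth thus differed more than the medians show, and nothing is read from the gap between these shares. After RPSA, the highest CTCCA level in members was in RPL7L1 (17.99%, 70 of 389 reads). The pooled level of the 134 was 2.25% with RPSA, beside 0.356% at CTCCA over all genes. Without the RPSA cytosine the levels were 0.183% in members and 0.259% over all genes, beside 0.1004% at all member cytosines. At the 17 other covered CTCCA cytosines that had an NSun6 read, 213 of 82179 reads were methylated (0.259%).

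CNGGG, a C followed by any base and 3 guanines, read on the strand of the gene and known from sites of the related enzyme NSun2, was the context of 520 covered member cytosines, with a pooled level of 0.504% beside 0.546% over all genes. Of these, 6 reached 20% (1.15%), in RPS15A, RPL7L1, RPLP2 and RPL14, beside 631 of 127393 over all genes (0.495%). All 6 had another such cytosine within 10 nucleotides, 3 lay outside canonical transcripts, and the 30-base sequences of the other 3 occur at least 18 times, so nothing is read from the gap between these shares. The RPS6 cytosine at 3.74% has this context, in which its C is followed by AGGG, in a sequence found once in the genome and 3 times after conversion. NSun6 reads were rare there, at 0.613 ± 0.738% of the reads at member cytosines (SD, n = 3) and 0.620 ± 0.175% over all genes.

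The members with a close relative among the ribosomal protein genes were compared with it. Summed over cytosines, RPL3 had 1765254 bisulfite reads at 0.0819% and its muscle paralog RPL3L 3193 at 0, too few reads to place it under RPL3. RPL22 had 140513 at 2.09% and RPL22L1 5111 at 0.0587%, the latter over 27 covered cytosines, or 7.11% of its canonical ones. RPL22L1, RPL39 (17 cytosines) and RPS27L (36) were thus under the 50 used for gene levels above, and their levels are not read against those of their relatives. RPL26 and RPL26L1 stood at 0.0988 and 0.0671%, RPL36A and RPL36AL at 0.0606 and 0.0591%, and RPL39 and RPL39L at 0.0632 and 0.0384%. RPL7 stood at 0.0417%, with 3 methylated of 7188 reads, and RPL7L1 at 1.44%. RPS27, with 234 NSun6 reads, had 9242 bisulfite reads at 0.0433%, and RPS27L had 1 NSun6 read and 16223 bisulfite reads at 0.0370%.

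No cytosine of RPL10L, RPS4Y1 or RPS4Y2 reached a coverage of 20, and none of these 3 genes had a miCLIP read. RPL10L, an autosomal retrogene of RPL10 that is known from the testis, was at 0. RPL10 had 814909 bisulfite reads, summed over its cytosines, at 0.0796%, and 0 NSun6 reads.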

How the data were processed

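In the miCLIP samples, per the study's methods, the authors collapsed reads with identical random barcodes, mapped the trimmed reads with Bowtie to hg19 (GRCh37), keeping those that mapped to a single place, and deposited counts of reads per truncation position for each library. The files list each chromosome in 2 passes, which were read as plus and minus strand. For BS RNA-Seq the authors mapped with Bismark, and deposited 1 table of cytosines covered by more than 5 reads, with methylated and unmethylated counts and the percent methylated. Versions were not given in the sources used here.

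From these files, reads and cytosines were assigned with GENCODE v44 lifted to hg19, whose sequence fitted the table: 454 of its 76007404 nuclear positions were not C or G. Exons of protein-coding transcripts were used, small RNA genes took precedence, and bases shared by several protein-coding genes were left out. Counts per gene and per cytosine were tested with edgeR 4.0.16 (quasi-likelihood, TMM, filterByExpr, NSun3 against NSun6, 3 libraries each, R 4.3.3), with DESeq2 1.42.0 as an alternative, and Benjamini-Hochberg adjustment over all features tested. The labels do not say whether the libraries came from separate cultures, so p-values measure only the spread between them. Both steps were tested on simulated counts with known changes. Single values were compared by exact permutation in SciPy 1.17.1. Bisulfite levels used cytosines with at least 20 reads, with exact (Clopper-Pearson) 95% intervals. Positions are 1-based.

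The members, gene lists and tests were chosen with earlier results of these data known. Named members were the 10 with the highest NSun6 RPM, the 10 highest and 5 lowest in bisulfite level, those holding the high-confidence sites or the 12 cytosines of at least 20% with the highest lower interval bounds, those with no covered cytosine, and the paralog pairs, except for an item that is not reported here.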

Additional observations from a re-analysis of the deposited data

How the results depend on the processing

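Leaving out NSun3 replicates 1 to 3 in turn, 9 of 9, 9 of 9 and 8 of 9 members tested were called lower in NSun3. Over all genes these were 2420 of 2566, 2100 of 2578 and 2050 of 2583. Without any 1 NSun6 library 4 of 4 members were, beside 1052 of 1173, 986 of 1128 and 1006 of 1140 genes. In the cytosine test 6 of 6 were without any 1 NSun3 library (2555 of 3076, 2295 of 3166 and 2359 of 3321 cytosines) and 4 of 4 without any 1 NSun6 library (960 of 1624, 960 of 1607 and 924 of 1583). The filter on low counts set how many members were tested, so nothing is read from these counts. The high-confidence NSun6 sites stayed at 4. The difference in read share, NSun3 minus NSun6, ran from -0.171 to 0.0196 percentage points (-0.0956), turning its sign without NSun3 replicate 3. Without the filter on low counts, 21 of 61 members and 8 of 211 member cytosines were lower, beside 30.7% of all genes and 3.7% of all cytosines tested; without NSun3 replicate 3 as well, chosen after seeing the data, 13 and 6 were. Counting each position once turned the difference in read share to 0.265 (exact permutation test, p = 0.4). At 20 RPM, 9 member cytosines passed as NSun6 sites, and the share over all cytosines at that threshold was not computed. At 50 RPM, 2 passed when only canonical transcripts were used, an alternative chosen after seeing the data.

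Cytosines at 20% or more were 68. They were 148 at a level of 10% and 39 at 30%, 4 without those that had another within 10 nucleotides, 12 with unique 30-base sequences and 9 with sequences still unique after conversion, the last chosen after seeing the data. Without RPL7L1 and RPS19BP1, also chosen after seeing the data, 47 were left. The pooled level of 0.113% was 0.0884% without the cytosines at 20% or more, 0.119% with unique sequences, 0.111% in canonical transcripts and 0.134% with sequences unique after conversion. The coverage share of 5.01% was 4.88% at over 5 reads, 1.87% with unique sequences and 5.04% in canonical transcripts. Where sequences are repeated, reads from other copies cannot be told apart from those of the members.

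Same-numbered NSun3 and NSun6 libraries deviated together with correlations of 0.038, 0.0695 and 0.0198 over genes. The NSun3 libraries held few exon reads, so these low values do not decide whether the replicate numbers pair the libraries. With a replicate block, 6 of 6 members and 4 of 4 member cytosines tested were lower in NSun3, as without it. Over all genes, those lower went from 1309 to 1183 of 1424, and over all cytosines from 1284 to 1187 of 1775. The remaining alternatives (RLE scaling, library totals, DESeq2, both strands, without mitochondrial genes) also called 6 of 6 members tested. Beside them stood 1249 of 1397 genes (without mitochondrial genes) to 1371 of 1424 (RLE scaling). Those run for cytosines called 4 of 4, beside 1286 to 1381 of 1775 cytosines. These calls of members were fixed by the filter on low counts, so nothing is read from them. The 2 bisulfite samples were taken to share 1 table, so their agreement was not tested, and NSun3 libraries of 47352 to 138921 reads limit every statement on NSun3.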
